A study of Mus musculus with 23 samples.

Results

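The response of quadriceps muscle and of epididymal fat to the same pancreatic tumor was compared gene by gene. The members are the 12599 genes present in both deposited count tables, of 17194 genes present in either, with 232 in the muscle table only and 4363 in the adipose table only. After a filter on low counts, 12556 of the 12599 were tested. All libraries came from male C57BL/6J mice that were 8 weeks old at surgery. No tumor mice had sham surgery, and KPC mice had KPC cells placed in the pancreas. KPC is a single mouse pancreatic cancer cell line, derived from 1 tumor of a genetically engineered mouse whose alleles are recombined by Pdx1-Cre, so every KPC value rests on 1 tumor line. Muscle gave 3 no tumor and 4 KPC libraries, and fat gave 4 and 4, with 1 library per mouse in each tissue. The other 8 of the 23 libraries came from mice with KPC IL6KO tumors and entered no main value. The comparison asks which genes respond alike in the wasting muscle and fat, and which respond in one tissue or in opposite directions.

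In cancer cachexia, a tumor causes wasting of muscle and fat together. In muscle, loss of protein runs through ubiquitin ligases, the proteasome and autophagy, under FoxO transcription factors that insulin signaling holds in check and glucocorticoids turn on. In fat, stored triglyceride is broken down and adipocytes shrink. Interleukin-6 (IL-6) acts on both tissues through its receptor IL6RA and the shared subunit gp130 (Il6st), which activate STAT3. STAT3 turns on acute phase genes and its own inhibitor Socs3.

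The 2 sets of libraries were made separately, so tissue and preparation cannot be told apart in any level. Replicate numbers differ between the tissues, and whether any mouse gave both tissues was not established. The joint model took all libraries as independent. Each fold change was taken within a tissue, and only the fold changes are compared. Whether both tissues came from the same cohort of mice was not established either. A difference between tissues in fold change thus cannot be told apart from one between cohorts or preparations. Library totals ran from 19259763 to 74907810 counts in muscle and from 26306377 to 56308545 in fat. The spread between mice was larger in fat, with a common biological coefficient of variation of 55.7% against 26.7% in muscle. The labelled tissues carried their own markers: 19 skeletal muscle fiber genes summed to between 215600 and 305900 CPM (counts per 1000000 of a library's total, scaled by TMM within tissue) in muscle and to at most 865.8 in fat. The fat libraries also held RNA of the neighbouring epididymis. The 20 epididymis genes summed to between 16040 and 109600 CPM over the 8 fat libraries. Gpx5, made by the epididymis, was at 37010 and 33810 CPM in no tumor mice 5 and 7, at 52.6 and 4.97 in no tumor mice 6 and 8, and from 21070 to 40570 in the 4 KPC mice. Crisp1, another epididymis gene, went the other way, at 12130 and 15030 CPM in no tumor mice 6 and 8, at 1229 and 5679 in no tumor mice 5 and 7, and from 158 to 5259 in the KPC mice. The same no tumor mice 6 and 8 were the highest of the 8 in 12 adipocyte genes but for KPC mouse 5, at 29230 and 10470 CPM in sum. They were also the highest in muscle fiber genes, at 352 and 866 CPM against 45.3 to 59.9 in the other 6. Of 14 muscle fiber genes tested, 5 differed toward muscle, and their median fat change was -1.88 with and -0.03 without these mice. The part of these tissues in the fat changes was not tested. Several results are given with and without them below. With both left out, the difference was called in 2780 genes with a higher muscle change and 2935 with a higher fat change, and fat rose for 346 genes and fell for 46.

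**Figure D1:**
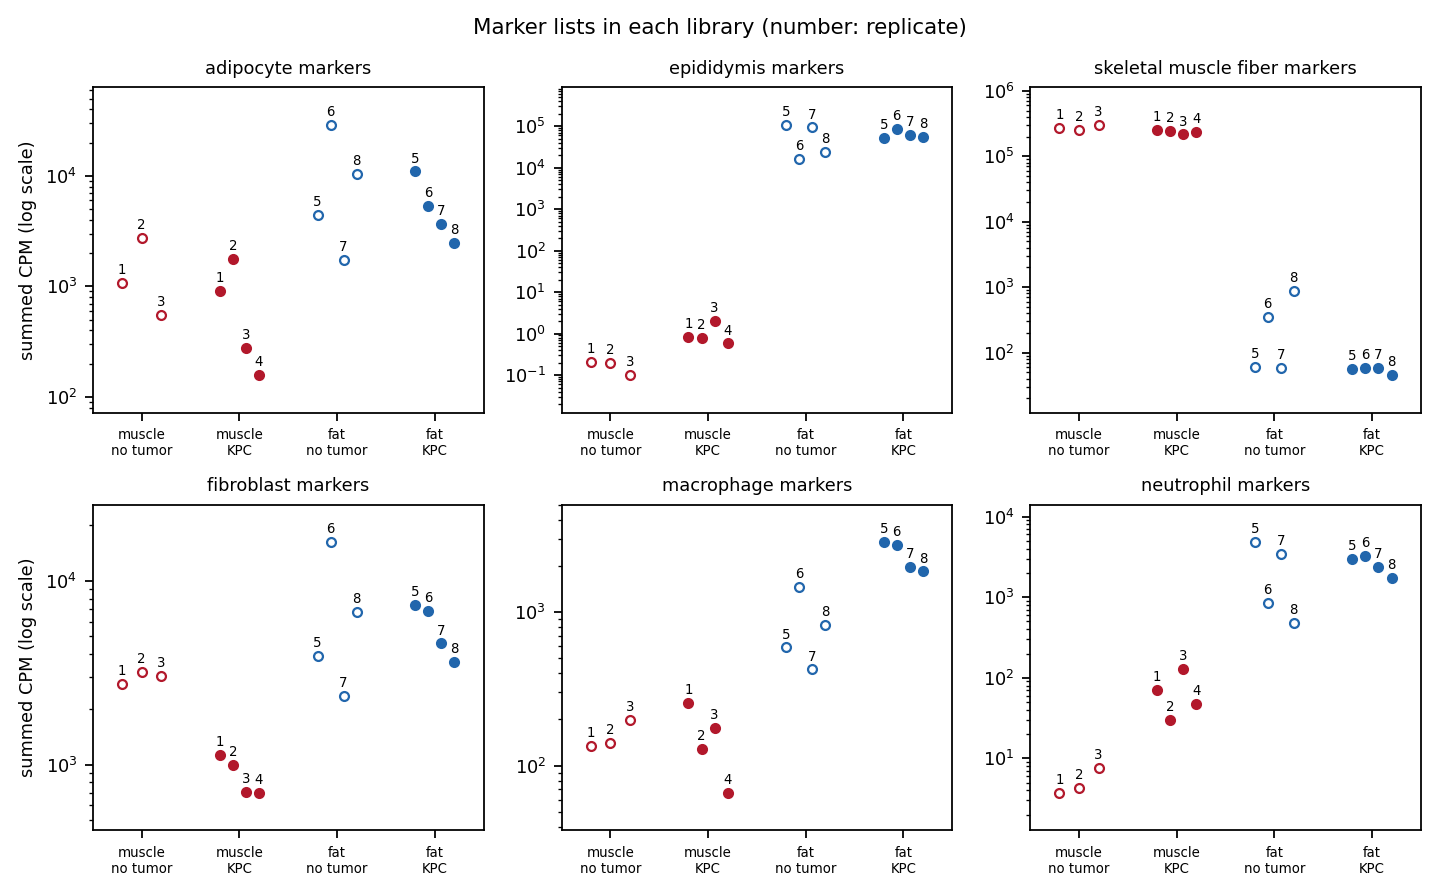
Summed CPM of 6 marker lists (log scale) in each of the 15 libraries, with open circles for no tumor, filled circles for KPC and the replicate number above each point. Fat no tumor mice 6 and 8 stand low in epididymis genes and high in muscle fiber genes, fibroblast genes are lower with KPC tumor in muscle without overlap, and macrophage genes stand higher in all 4 KPC fat libraries than in the 4 no tumor ones.

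The responses differed for 4755 of 12556 genes, which is 37.9% of those tested. The muscle change was the higher of the 2 for 2608 genes (20.8%) and the fat change for 2147 (17.1%). A gene was called when its adjusted p (edgeR's quasi-likelihood test, Benjamini-Hochberg) was at most 0.05 and the 2 log2 fold changes differed by at least 1.5-fold. Most of these genes were past 1.5-fold in muscle only. Among genes with a higher muscle change, 2155 were past 1.5-fold upward in muscle and under 1.5-fold in fat. Among genes with a higher fat change, 1351 were past 1.5-fold downward in muscle and under it in fat. Among the called genes, opposite changes past 1.5-fold in both tissues were seen for 168 genes that were up in muscle and down in fat, and for 441 that were down in muscle and up in fat. A called difference favours such genes. Changes past 1.5-fold in the same direction were seen for 76 up and 2 down with the higher change in muscle. With the higher change in fat there were 11 up and 104 down. Among genes without a called difference, 298 were past 1.5-fold up in both tissues and 709 down in both. There, 100 were up in muscle and down in fat, and 38 the other way. Within tissues, muscle rose for 3390 genes (27%) and fell for 3252 (25.9%), 52.9% in all, and fat rose for 72 (0.573%) and fell for 1 (0.00796%), 0.581% in all. The fat counts rested on single mice: leaving out any 1 fat library other than no tumor mouse 6 left between 1 and 18 genes that rose in fat.

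Across the 12556 genes the fold changes of the 2 tissues were weakly related, with Pearson's r of 0.187 and Spearman's rho of 0.148. This is a description over genes, which share their libraries and are not independent. The sign was the same in both tissues for 54.8% of genes. Of the genes that rose in muscle, 55.8% had a positive change in fat, and of those that fell in muscle, 58.7% had a negative one. Over all 12556 genes, 5909 had a positive change in fat, so a negative one was the more common.

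**Figure D2:**
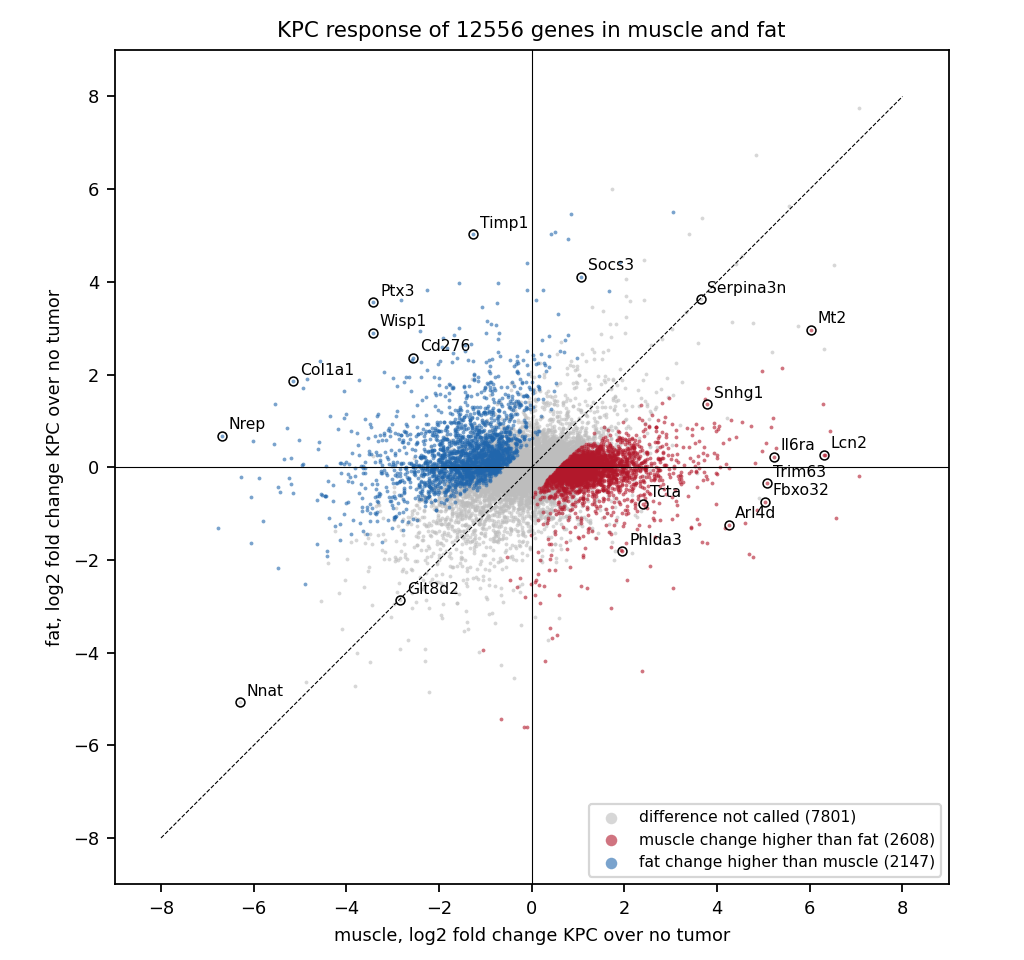
Log2 fold change of KPC over no tumor in muscle (x axis) and in fat (y axis), 1 point per gene for 12556 genes, colored by whether the difference between tissues was called, with the dashed line marking equal changes. Points spread along the muscle axis, with 2608 genes below the line and 2147 above it called, and few genes lie far from 0 in both tissues.

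To say that a gene moved in both tissues, the larger of its 2 p-values was adjusted over all genes. By this test no gene was called, in any of the 4 pairs of directions (0% each), with a smallest adjusted p of 0.0948 by edgeR's quasi-likelihood test. At an unadjusted p under 0.05 in both tissues there were 1344 genes, 901 with the same sign and 443 with opposite signs. Other tools gave calls: edgeR's likelihood ratio test called 58 genes up in both, 45 down in both, 2 up in muscle and down in fat, and 46 down in muscle and up in fat. DESeq2 called 111, 100, 15 and 77. Asking each tissue to pass its own adjusted threshold, a rule added after seeing the data, gave 19 genes up in both (0.151%), 0 down in both, 1 up in muscle and down in fat (0.00796%) and 13 down in muscle and up in fat (0.104%). With all 23 libraries in the fit, these counts were 0 in each direction. Without any 1 fat library other than no tumor mouse 6 they fell to between 0 and 6 up in both, to 0 up in muscle and down in fat, and to between 1 and 4 down in muscle and up in fat. A plainer measure is whether KPC and no tumor libraries did not overlap in either tissue. This held for 394 genes higher in both tissues (3.14%), 263 lower in both (2.09%), 115 higher in muscle and lower in fat (0.916%), and 242 lower in muscle and higher in fat (1.93%). These counts depended on the libraries: leaving out 1 library at a time they ran up to 626 (without KPC fat mouse 7), 418 (without fat no tumor mouse 7), 220 and 421 (both without fat no tumor mouse 6), and without fat no tumor mice 6 and 8 they were 849, 709, 612 and 933. Without the same 2 mice, the counts by each tissue's own threshold were 55, 21, 9 and 120. In single tissues the groups did not overlap for 65.3% of genes in muscle and 12% in fat. Most genes below were named by fixed rules, and further list members given as examples were chosen after their values were seen. Counts of called differences in each list below stand beside 20.8% of all genes tested toward muscle and 17.1% toward fat.

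The sequences shown are the promoters of 5 genes that were higher with tumor in both tissues, a selection made after their values were seen, with the STAT and metal response motifs marked. Socs3 encodes the feedback inhibitor of IL-6 signaling, Sbno2 a transcriptional regulator downstream of STAT3, and Chil3 a secreted chitinase-like protein of myeloid cells. Mt1 and Mt2 encode metallothioneins, small proteins that bind zinc. The 250 bases before each start site come from RefSeq on GRCm38.p6, the assembly of the files' mm10 build, with capitals marking matches to the STAT motif TTCNNNGAA in the first 4 and to the metal response element (TGCACNC or TGCGCNC, either strand) in the last 2.
Socs3 chr11:117969367-117969616 minus strand: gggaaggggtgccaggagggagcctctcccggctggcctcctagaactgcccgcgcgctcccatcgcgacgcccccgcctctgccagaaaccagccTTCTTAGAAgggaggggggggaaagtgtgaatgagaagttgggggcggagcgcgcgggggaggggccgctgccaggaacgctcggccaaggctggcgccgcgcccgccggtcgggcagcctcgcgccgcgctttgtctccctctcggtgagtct
Sbno2 chr10:80102703-80102952 minus strand: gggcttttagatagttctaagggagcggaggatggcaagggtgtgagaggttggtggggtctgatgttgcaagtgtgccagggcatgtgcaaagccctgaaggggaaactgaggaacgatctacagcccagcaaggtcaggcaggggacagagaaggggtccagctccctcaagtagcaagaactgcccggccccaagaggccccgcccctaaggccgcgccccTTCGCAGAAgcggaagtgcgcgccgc
Sbno2 chr10:80101188-80101437 minus strand: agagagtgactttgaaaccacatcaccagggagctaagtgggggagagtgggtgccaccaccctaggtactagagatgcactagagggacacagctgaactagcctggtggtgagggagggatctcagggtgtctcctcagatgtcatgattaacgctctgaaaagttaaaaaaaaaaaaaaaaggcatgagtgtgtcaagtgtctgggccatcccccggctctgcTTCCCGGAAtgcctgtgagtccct
Chil3 chr3:106167565-106167814 minus strand: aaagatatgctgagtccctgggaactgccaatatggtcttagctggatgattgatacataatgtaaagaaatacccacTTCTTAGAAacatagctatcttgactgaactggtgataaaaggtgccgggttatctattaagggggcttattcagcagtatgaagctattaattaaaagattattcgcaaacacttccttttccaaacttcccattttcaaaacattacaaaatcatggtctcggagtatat
Mt1 chr8:94178839-94179088 plus strand: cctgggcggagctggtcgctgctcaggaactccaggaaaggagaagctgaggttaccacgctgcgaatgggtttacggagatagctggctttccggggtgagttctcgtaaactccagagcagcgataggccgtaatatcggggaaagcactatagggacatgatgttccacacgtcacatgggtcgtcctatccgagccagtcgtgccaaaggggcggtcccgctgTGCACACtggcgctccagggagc
Mt2 chr8:94172368-94172617 plus strand: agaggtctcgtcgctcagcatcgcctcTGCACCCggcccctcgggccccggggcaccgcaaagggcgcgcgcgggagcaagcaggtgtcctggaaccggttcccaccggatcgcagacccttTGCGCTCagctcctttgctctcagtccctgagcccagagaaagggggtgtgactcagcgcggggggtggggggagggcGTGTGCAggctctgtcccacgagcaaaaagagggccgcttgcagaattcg

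RefSeq lists 3 start sites for Sbno2, and the 2 with a match are shown. Of 12556 genes tested, 9574 had a promoter in the table, and 7.26% of these held the STAT motif and 34.6% the metal response element. Among the genes higher in both tissues without overlap, 27 of 311 with a promoter (8.68%) held the STAT motif, against 9 of 198 (4.55%) of those lower in both. The metal response element was in 30.2% and 32.8% of the same 2 groups. A match is a description of the letters and says nothing of binding in these tissues.

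Values given below for a gene in muscle and in fat with no unit are log2 fold changes of KPC over no tumor, and ± gives the SE. Socs3 rose in both tissues but by unequal amounts. It was at 5.26, 3.04 and 3.20 CPM in no tumor muscle and 13.4, 5.03, 5.54 and 8.21 in KPC muscle. The fat libraries stood at 2.16, 4.47, 2.39 and 4.57 CPM without tumor and 92.4, 54.3, 44.02 and 44.5 with KPC tumor. The groups overlapped in muscle, at the highest no tumor mouse, and were far apart in fat. The log2 fold change was 1.06 ± 0.38 in muscle (edgeR adjusted p = 0.0378) and 4.11 ± 0.39 in fat (adjusted p = 0.0279), and the difference between tissues was -3.05 (95% interval -4.21 to -1.88), adjusted p = 0.000810. The muscle call was lost without muscle no tumor mouse 2 or 3 or without KPC mouse 1 or 4, and the difference was called in every setting tried. Sbno2 passed upward in each tissue on its own threshold: it went from 13.3, 13.5 and 12.02 to 46.1, 36.2, 52.1 and 40.6 CPM in muscle and from 36.7, 33.9, 35.7 and 32.1 to 140.0, 90.3, 85.6 and 73.96 in fat, with no overlap in either. Its log2 fold changes were 1.76 and 1.5 (adjusted p = 8.23e-05 and 0.0282), with a difference of 0.26 (95% interval -0.30 to 0.82). Stat3 itself had log2 fold changes of 0.75 in muscle and 0.83 in fat, and Osmr, the oncostatin M receptor of the same family, of 1.40 in muscle and 1.22 in fat. Within each tissue, both were higher in every KPC library than in any no tumor library, and neither passed in fat (adjusted p = 0.243 and 0.167).

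The IL-6 receptor, in contrast, passed in muscle only and differed widely between the tissues. Il6ra was at 4.11, 5.26 and 5.11 CPM in no tumor muscle and at 264, 124, 156 and 179 in KPC muscle. In fat it was at 18.8, 22.02, 14.2 and 13.2 CPM without tumor and 22.4, 23.3, 17.2 and 16.5 with it, so that the groups overlapped in fat and stood far apart in muscle. The log2 fold change was 5.23 ± 0.31 in muscle (edgeR adjusted p = 2.08e-05) and 0.22 ± 0.22 in fat (adjusted p = 0.673), and the difference was 5.01 (95% interval 4.23 to 5.79), adjusted p = 2.56e-06. Il6st, the shared subunit, rose in muscle by 0.61 and was at 0.07 in fat, and its difference was not called (adjusted p = 0.343). Of 27 genes tested in the list of IL-6 family receptors and JAK-STAT3 signaling, the muscle change was higher in 3, the fat change in 9, and no difference was called in 15. The list's median log2 fold change was 0.61 in muscle and 0.15 in fat, beside 0.01 and -0.02 over all genes tested. Genes with the higher fat change included Lif, a ligand of the family (-2.39 in muscle and 1.94 in fat), Bcl3 (0.60 in muscle and 2.50 in fat) and the inhibitor Socs1 (-2.0 in muscle and 0.15 in fat). Myc, a growth regulator downstream of STAT3, was higher in both, at 1.90 in muscle and 2.12 in fat, and passed in muscle only (adjusted p = 0.00372 against 0.111).

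Metallothioneins were higher in both tissues without overlap, and more so in muscle. Mt2 was at 5.67, 8.89 and 15.5 CPM in no tumor muscle and 963, 154, 924 and 545 in KPC muscle. Fat values were 69, 60.8, 68.7 and 60.6 CPM without tumor and 1169, 428, 239 and 182 with it. The 4 no tumor fat libraries lay close together and all 4 KPC ones stood above them, with mouse 5 the highest. The log2 fold change was 6.03 ± 0.74 in muscle (edgeR adjusted p = 0.000284) and 2.96 ± 0.59 in fat (adjusted p = 0.0819), and the difference was 3.06 (95% interval 1.15 to 4.96), adjusted p = 0.0151, which became 0.0505 without muscle no tumor mouse 1. Mt1 had 5.40 in muscle and 2.14 in fat, with a called difference of 3.26. Slc39a14, a zinc importer that IL-6 induces in liver, was the third member higher in both without overlap, at 4.97 in muscle and 2.08 in fat, and its difference was called too. Slc39a1, another importer, fell in muscle (-1.14) and stood higher in fat without overlap, although its fat change did not pass (0.78, adjusted p = 0.155). Over the 21 genes tested, 7 had a higher muscle change and 2 a higher fat change, beside 20.8% and 17.1% of all genes tested, with medians of 0.14 and -0.05. Mt1 and Mt2 are close relatives, and the counting could have split reads between them.

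**Figure D3:**
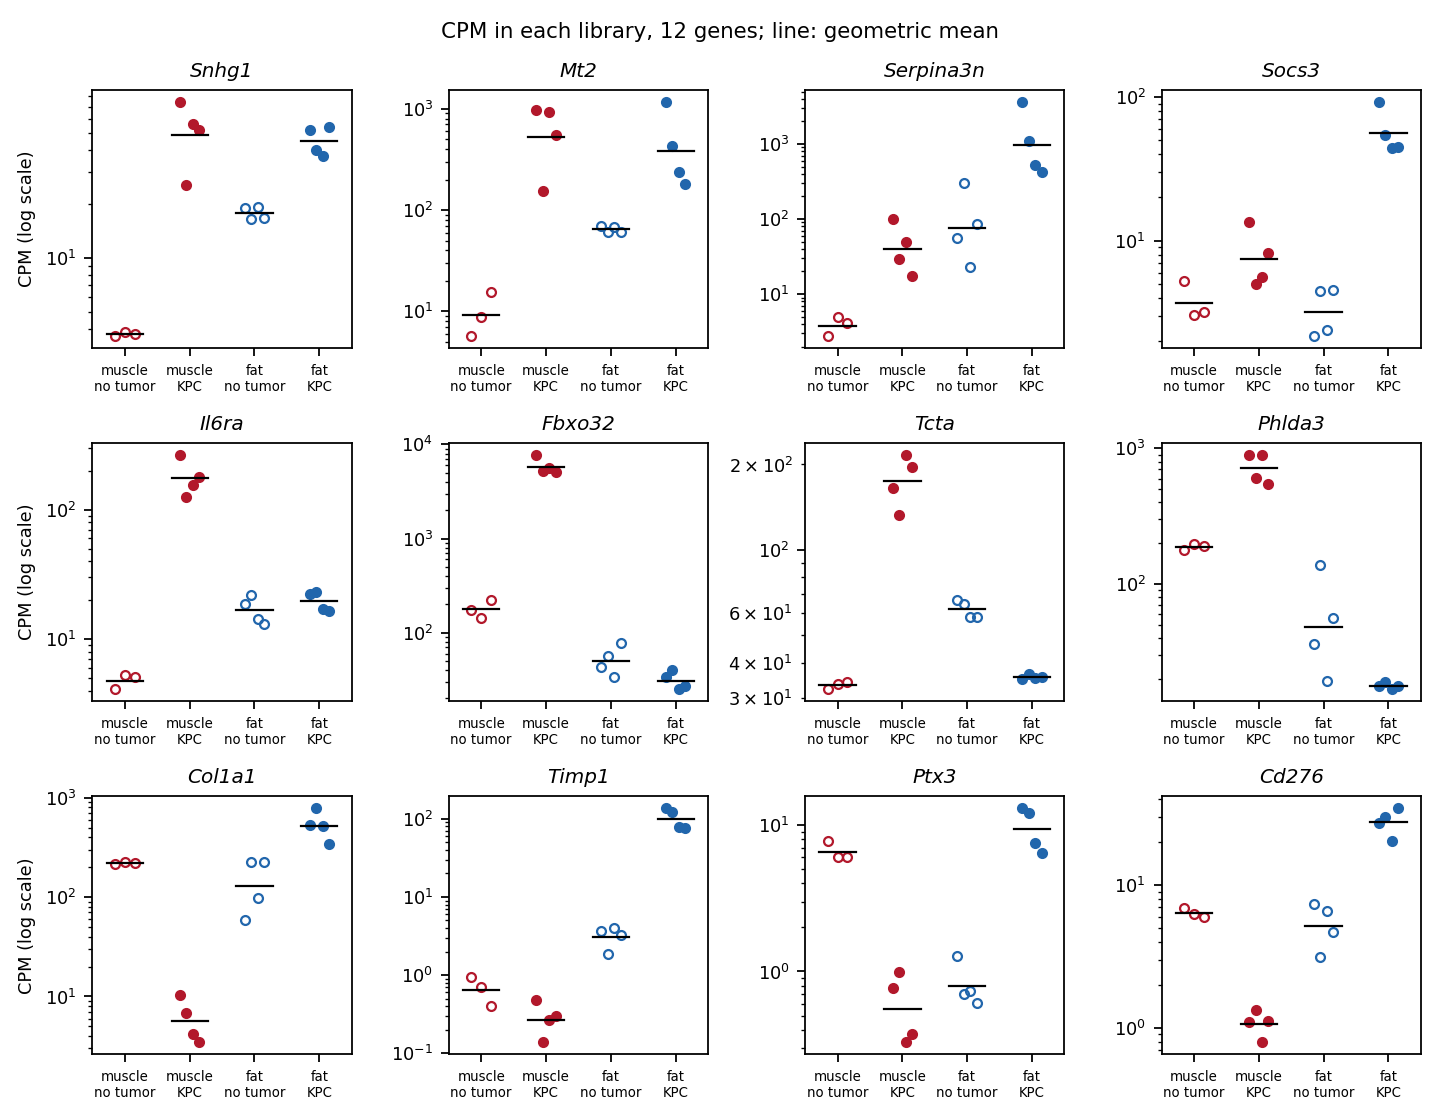
CPM on a log scale in each library for 12 genes, by tissue and tumor group, with a line at the geometric mean of each group. Snhg1, Mt2 and Serpina3n are higher with KPC tumor in both tissues, Il6ra and Fbxo32 are higher in muscle and overlap in fat, Tcta and Phlda3 go up in muscle and down in fat, and Col1a1, Timp1, Ptx3 and Cd276 go down in muscle and up in fat.

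The genes that came nearest to a call upward in both tissues by the larger p were Snhg1, Chil3 and Cd300lf. Snhg1, a host gene of small nucleolar RNAs, was at 3.63, 3.86 and 3.75 CPM in no tumor muscle and 74.4, 25.5, 55.7 and 52.04 in KPC muscle. The fat libraries stood at 18.97, 16.4, 19.2 and 16.6 CPM without tumor and 52, 40.1, 36.9 and 53.7 with it. Each tissue's groups were well apart, with log2 fold changes of 3.79 ± 0.35 and 1.36 ± 0.17 (edgeR adjusted p = 9.12e-05 and 0.0279). Its change was larger in muscle by 2.43 (95% interval 1.64 to 3.22), adjusted p = 0.000277. Chil3 was at 2.54, 1.47, 0.115 and 0.802 CPM in no tumor fat and 432, 309, 138 and 162 in KPC fat, a log2 fold change of 7.76 ± 0.96 (adjusted p = 0.0279). In muscle all 3 no tumor libraries held at most 3 counts of Chil3 and the KPC libraries 1.12, 0.872, 2.40 and 0.875 CPM, so its muscle change, at least 3.93 on the log2 scale against 3 counts per library, is a lower bound. Chil3 has close paralogs among which reads could have been split. Cd300lf, an inhibitory receptor of myeloid cells, had log2 fold changes of 3.68 in muscle and 5.37 in fat, from at most 0.0679 CPM in the no tumor muscle libraries.

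Among the 19 genes called up in both tissues on their own thresholds were S100a9, Csf3r, Plaur and Pglyrp1, which neutrophils and other myeloid cells express. S100a9, a calcium-binding protein of neutrophils, was at 0.0509, 0.135 and 0 CPM in no tumor muscle and 1.54, 4.62, 3.08 and 5.10 in KPC muscle. In fat it was at 0.386, 0.105, 0.0459 and 0.213 CPM without tumor and 15.9, 8.46, 7.61 and 4.94 with it. These are low levels, and in both tissues the groups were apart (5.55 in muscle and 5.63 in fat). Csf3r, the receptor for granulocyte colony-stimulating factor, had 1.74 in muscle and 1.89 in fat, Plaur, the urokinase receptor, 2.43 in muscle and 3.60 in fat, and Pglyrp1, a bactericidal protein of neutrophil granules, 1.83 in muscle and 3.10 in fat. Outside the myeloid genes stood Ahcy, which hydrolyses S-adenosylhomocysteine (2.31 in muscle and 1.07 in fat), Upp1, uridine phosphorylase (2.02 in muscle and 3.25 in fat), Hmgb2, a chromatin protein (2.81 in muscle and 1.38 in fat), Cdt1, which licenses DNA replication (1.42 in muscle and 1.97 in fat), and Adamts4, an aggrecan protease (3.06 in muscle and 5.50 in fat). The acute phase gene Itih4 had 3.39 in muscle and 5.04 in fat. The other members were Wfdc17 (2.42 in muscle and 4.47 in fat), Slc25a34 (1.66 in muscle and 3.81 in fat), Cgref1 (0.98 in muscle and 2.37 in fat) and 1110038B12Rik (2.36 in muscle and 1.34 in fat). The neutrophil list shares S100a9 and Csf3r with these genes, and 7 of its 16 genes were tested. Of the 7, 6 had the same sign in both tissues and 4 were higher in both without overlap. In muscle 5 rose and 1 fell, in fat 2 rose, and the medians were 4.54 and 2.55. Its summed level ran from 3.75 to 7.61 CPM in no tumor muscle and from 29.6 to 128.9 in KPC muscle. Lcn2 made most of the sum in KPC muscle, at 62.8 of 71.4, 15.4 of 29.6, 105 of 128.9 and 34.3 of 47.8 CPM. In fat the sum was led by Lcn2 in all libraries but no tumor mice 6 and 8, and ran from 476.8 to 4826 CPM without tumor and from 1714 to 3268 with it. In bulk tissue, more cells of a type and more RNA per cell cannot be told apart, and the part of these cells in other results was not tested.

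Among genes without overlap in either tissue, large shared increases were those of Serpina3n and Tmem252, chosen after their values were seen. Serpina3n, a protease inhibitor of the acute phase, went from 2.73, 4.98 and 4.05 to 98.8, 28.98, 50.2 and 17.4 CPM in muscle and from 55.7, 298, 23.3 and 85.6 to 3649, 1100, 531 and 428 in fat. Its log2 fold changes were nearly equal at 3.64 ± 0.60 and 3.63 ± 1.02, with a difference of 0.01 (95% interval -2.35 to 2.38). The fat change did not pass (edgeR adjusted p = 0.163), and without fat no tumor mice 6 and 8 it was 5.19, with a difference of -1.55 from muscle. Tmem252, a membrane protein, had 4.77 in muscle and 3.12 in fat. Serpina3n has near-identical neighbours, and counting could have split their reads.

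Genes of the acute phase list were split in direction. Of 15 genes tested, 10 had the same sign in both tissues, 3 were higher in both without overlap, 2 differed with muscle higher and 2 with fat higher. Both counts of differences were under the shares over all genes tested (20.8% and 17.1%). Lcn2, lipocalin 2, differed most toward muscle, at 0.611, 0.730 and 0.751 CPM without tumor and 62.8, 15.4, 105 and 34.3 with it in muscle, while in fat it was at 4816, 63.6, 3311 and 82.1 CPM without tumor and 2885, 3202, 2286 and 1539 with it. The fat no tumor libraries fell into a high and a low pair that matched the Gpx5 pairs, and the KPC libraries lay between them, so the fat change was 0.26 ± 1.22 and -0.70 without mice 6 and 8. In muscle the change was 6.30 ± 0.73, and the difference was called by edgeR, at 6.03 (95% interval 2.47 to 9.59) (adjusted p = 0.0114), and not by limma voom (adjusted p = 0.235). Timp1, an inhibitor of matrix proteases, differed most toward fat. It fell in muscle from 0.951, 0.711 and 0.401 to 0.477, 0.137, 0.263 and 0.298 CPM (-1.26, adjusted p = 0.0408, with overlapping groups) and rose in fat from 3.70, 1.85, 3.95 and 3.24 to 138, 123, 77.95 and 75.8 CPM (5.02 ± 0.34, adjusted p = 0.00504). Ecm1, a secreted matrix protein of the same list, fell in muscle and was higher in fat without overlap (-1.22 in muscle and 0.82 in fat). Haptoglobin (Hp) had 1.30 in muscle and 2.55 in fat and did not pass in either, and Lrg1 had 0.97 in muscle and 2.18 in fat and passed in muscle.

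Of the 22 pathway lists, the cytosolic ribosomal proteins were the 1 in which every gene tested had the same sign in both tissues. All 79 genes tested had a positive change in both tissues, and 57 were higher in both without overlap. The muscle change passed for 42 of them and the fat change for 0, and a difference between tissues was called for 1. The changes were small: the median log2 fold change was 0.63 in muscle, with quartiles of 0.48 and 0.77, and 0.47 in fat, with quartiles of 0.37 and 0.55. Under the 26 other settings tried, all 79 stayed positive in fat, the muscle median ran from 0.46 to 0.71, and the median difference ran from -0.01 to 0.23, below 0 only without muscle KPC mouse 3. Rpl10a was at 95.8, 96.7 and 93.02 CPM in no tumor muscle and 204, 149, 243 and 150.0 in KPC muscle, and in fat at 162, 146, 201 and 151 without tumor and 279, 278, 241 and 247 with it. Its groups were apart in both tissues, with log2 fold changes of 0.97 ± 0.19 and 0.66 ± 0.15. Rps20 had the larger gap of the 2 named (1.02 in muscle and 0.34 in fat), which was not called (adjusted p = 0.0643). Many of these genes have processed pseudogenes with which reads could have been shared.

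Genes of lipid synthesis had mostly negative changes in both tissues. In cholesterol synthesis, 7 of 24 genes tested were lower in both without overlap, 22 had a negative change in fat, 13 fell in muscle and 0 in fat, and the medians were -0.79 in muscle and -0.81 in fat. Acat2, which makes acetoacetyl-CoA, had -1.54 in muscle and -0.87 in fat, and Idi1, which isomerises isopentenyl pyrophosphate, had -1.55 in muscle and -1.11 in fat. Of these genes, 5 differed toward muscle, about the share over all genes tested (20.8%), and 2 toward fat, under that share (17.1%). Fdft1 and Lss, both late enzymes of the pathway, rose in muscle. Squalene synthase (Fdft1) was at 77.7, 80.5 and 82.8 CPM in no tumor muscle and 289.9, 334, 467 and 337 in KPC muscle, and in fat at 206, 130.2, 188 and 152 without tumor and 82.1, 99.9, 132 and 96.01 with it. The muscle groups were far apart upward and the fat groups overlapped, giving 2.15 ± 0.19 and -0.72 ± 0.20, and a difference of 2.87 (95% interval 2.25 to 3.49) (edgeR adjusted p = 2.00e-05). In fatty acid and triglyceride synthesis all 24 genes had a negative change in fat, where none passed, and 14 fell in muscle, with medians of -1.15 and -0.90. Without fat no tumor mice 6 and 8, 9 of the 24 were positive in fat and the median was -0.46. Pnpla3, a lipase-related protein of fed fat and liver, had the values -2.29 in muscle and -4.18 in fat. Acss2, which makes acetyl-CoA from acetate, went opposite ways, up in muscle by 1.22 and at -1.40 in fat without overlap (adjusted p of the difference = 0.00170).

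The 12 adipocyte genes had a negative change in both tissues, with medians of -1.30 in muscle and -1.56 in fat, and 2 passed in muscle and 0 in fat. Their sum ran from 556.8 to 2740 CPM in no tumor muscle and from 157.8 to 1763 in KPC muscle. In fat it ran from 1724 to 29230 CPM without tumor and from 2466 to 10990 with it. The groups overlapped in both tissues. Without fat no tumor mice 6 and 8 the fat median was 0.21, so its direction rested on those libraries. Lipolysis and lipid droplet genes had medians of -0.22 and -0.60, the latter 0.80 without the same mice, and 3 of 25 differed, all with muscle higher. Aqp7, a glycerol channel, had -2.33 in muscle and -2.58 in fat, and Plin5, a droplet protein of oxidative tissue, rose in muscle by 1.86 and was at -0.49 in fat (difference called, adjusted p = 0.0118).

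The single genes nearest to a call downward in both were Susd2, Glt8d2 and Aff3. Glt8d2, a glycosyltransferase-like protein, went from 1.70, 1.71 and 1.95 to 0.200, 0.291, 0.131 and 0.372 CPM in muscle and from 3.55, 13.1, 4.13 and 9.75 to 0.8287, 0.863, 1.42 and 1.06 in fat. The groups were apart in both tissues, and the log2 fold changes were -2.84 ± 0.37 and -2.87 ± 0.51 (edgeR adjusted p = 0.000364 and 0.0596). Susd2, a membrane protein, had -2.39 in muscle and -1.78 in fat, and Aff3, a nuclear protein, had -1.53 in muscle and -1.47 in fat. Among the large shared decreases without overlap, chosen after their values were seen, were Nnat, a proteolipid (-6.29 in muscle and -5.07 in fat), Sncg, gamma-synuclein (-3.81 in muscle and -4.71 in fat), and Jph2, which ties the T-tubule to the sarcoplasmic reticulum (-3.03 in muscle and -3.23 in fat). None of the 3 passed in fat. Nnat was at 27.1, 131 and 19.5 CPM in no tumor muscle and 1.39, 1.40, 0.197 and 0 in KPC muscle, and in fat at 225, 1235, 48.95 and 232 without tumor and 1.98, 21.1, 20.6 and 8.12 with it. Jph2 in fat was at 3.70, 25.7, 4.50 and 64.4 CPM without tumor and 1.98, 3.42, 2.80 and 2.25 with it, high in mice 6 and 8 as the muscle fiber genes were, and without these its fat change was -0.64 and the difference was called at -2.39.

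Tcta was the 1 gene called up in muscle and down in fat on its own thresholds. It encodes a small membrane protein first found at a translocation in T cell leukemia. It was at 32.2, 33.6 and 34.3 CPM in no tumor muscle and 165, 133, 216 and 196 in KPC muscle. Fat values were 66.6, 64.7, 57.9 and 58.1 CPM without tumor and 35.1, 36.5, 35.2 and 35.7 with it. The 4 KPC fat libraries were almost equal and all lay under the no tumor ones. The log2 fold change was 2.41 ± 0.19 in muscle (edgeR adjusted p = 5.16e-05) and -0.80 ± 0.10 in fat (adjusted p = 0.0280), and the difference was 3.21 (95% interval 2.76 to 3.65), adjusted p = 1.29e-06. Gstm2, a glutathione transferase, was close to it: it went from 47.98, 52.97 and 52.2 to 161, 124, 183 and 99.5 CPM in muscle and from 509.5, 432, 592 and 507 to 283, 279.8, 299 and 284 in fat. Its changes were 1.47 and -0.83, of which the fat one did not pass (adjusted p = 0.0743), and the difference was called (2.31). Atp6v0e, a subunit of the vacuolar proton pump, had 1.55 in muscle and -0.48 in fat, also without overlap.

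Of the 115 genes higher in muscle and lower in fat without overlap, the difference was called in 110, beside 37.9% of all genes tested. These genes were picked by opposite gaps in the same libraries, which favours a called difference, so no conclusion is drawn from this count. Those with the largest smaller-of-2 absolute log2 fold changes, chosen after their values were seen, were Arl4d, a small GTPase (4.25 in muscle and -1.24 in fat), Phlda3, a p53 target that restrains AKT (1.96 in muscle and -1.81 in fat), and Cyp27a1, the sterol 27-hydroxylase (1.38 in muscle and -1.53 in fat). Phlda3 was at 179.8, 199 and 189.9 CPM in no tumor muscle and 894, 607, 896 and 551 in KPC muscle. The fat libraries stood at 35.97, 138, 19.4 and 56.5 CPM without tumor and 17.7, 18.9, 16.8 and 17.7 with it. The KPC fat libraries lay close together under all 4 no tumor ones, of which mouse 6 was far the highest, and without mice 6 and 8 the fat change was -0.62. For Arl4d the fat change without those mice was -0.37, and the differences from muscle of both genes were still called, at 2.57 for Phlda3 and 4.62 for Arl4d.

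Most matrix genes fell in muscle, and their fat changes lay on both sides of 0. Of 44 collagens and matrix proteins tested, 33 fell and 2 rose in muscle, none passed in fat, and 27 differed, all with the higher change in fat. The medians were -2.10 in muscle and 0.30 in fat. Col1a1, the main fibrillar collagen chain, was at 213, 226 and 220.2 CPM in no tumor muscle and 10.3, 6.87, 4.20 and 3.44 in KPC muscle. In fat it was at 58.8, 225, 97.02 and 225 CPM without tumor and 531, 788, 525 and 342 with it. The groups were apart in both tissues and in opposite directions, with -5.15 ± 0.37 in muscle (edgeR adjusted p = 4.09e-05) and 1.85 ± 0.48 in fat (adjusted p = 0.143). The difference was -7.0 (95% interval -8.43 to -5.57), adjusted p = 1.30e-05. Col1a2 had the same pattern (-4.04 in muscle and 1.65 in fat), and Col3a1 had -5.53 in muscle and 1.38 in fat, with overlap in fat. Fn1, fibronectin, had -1.98 in muscle and 2.29 in fat. Vcan, the proteoglycan versican, is not in the list. It had -2.61 in muscle and 1.65 in fat and was called in each tissue on its own threshold. Some members of the list were lower in both, as Fmod, fibromodulin (-2.97 in muscle and -1.13 in fat), and the crosslinking enzyme Lox (1.35 in muscle and 2.33 in fat) and thrombospondin Thbs1 (1.70 in muscle and 2.81 in fat) were higher in both without overlap. Without fat no tumor mice 6 and 8, 39 of the 44 differed toward fat, and the fat median was 1.15.

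The marker genes of fibroblasts moved with the matrix genes, and share 3 collagens and Dcn and Lum with them. Of 15 tested, 13 fell in muscle, 0 passed in fat, and 8 differed toward fat, with medians of -2.25 and 0.08. Their summed level ran from 2752 to 3192 CPM in no tumor muscle and from 704.2 to 1129 in KPC muscle, with no overlap. In fat it ran from 2368 to 16230 without tumor and from 3629 to 7349 with it. Their part in the matrix result was not tested. Nrep, a regulator of matrix and wound responses and the expressed gene with the largest difference toward fat, was at 184, 157 and 114 CPM in no tumor muscle and 1.11, 2.12, 0.771 and 1.90 in KPC muscle (-6.69), and in fat at 23.3, 35.5, 15.97 and 37.1 without tumor and 54.5, 58.8, 26.2 and 39.2 with it (0.68, with overlap). Kcng4, a potassium channel subunit, fell in muscle and overlapped in fat (-5.89 in muscle and -0.23 in fat).

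The 13 genes called down in muscle and up in fat on their own thresholds were led by Ptx3, Creb3l1 and Cd276. Ptx3, a pentraxin of the innate immune system, was at 7.71, 6.01 and 6.06 CPM in no tumor muscle and 0.770, 0.992, 0.328 and 0.372 in KPC muscle. Fat values were 1.27, 0.698, 0.734 and 0.605 CPM without tumor and 13.02, 12.1, 7.47 and 6.42 with it. The groups were apart in both, with log2 fold changes of -3.42 ± 0.39 and 3.56 ± 0.41 (edgeR adjusted p = 0.000216 and 0.0279) and a difference of -6.99 (95% interval -8.22 to -5.75). Creb3l1, a transcription factor of collagen-secreting cells, had -2.71 in muscle and 1.94 in fat, and Cd276, an immune checkpoint protein, -2.56 in muscle and 2.37 in fat. Wisp1, a matricellular protein, had -3.43 in muscle and 2.90 in fat, from at most 0.730 CPM in muscle. Cd44, the hyaluronan receptor, had -0.97 in muscle and 3.15 in fat, Plat, tissue plasminogen activator, -1.25 in muscle and 2.01 in fat, Enpp3, an ectonucleotidase, -1.92 in muscle and 2.79 in fat, and Sema4b, a semaphorin, -1.33 in muscle and 0.95 in fat. Bicc1, an RNA-binding protein, had -0.81 in muscle and 1.41 in fat, and C1qtnf6, a secreted relative of adiponectin named for its gap between groups, -2.25 in muscle and 2.10 in fat. With fat no tumor mice 6 and 8 left out, 120 genes were called in this way.

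Genes of DNA replication and mitosis had mostly negative changes in muscle and positive ones in fat. Of 19 cell proliferation genes tested, all 19 were positive in fat and 4 in muscle. In muscle 9 fell and 3 rose, in fat 4 rose, and 13 differed, all toward fat. The medians were -0.76 and 1.20. Mcm2, a subunit of the replicative helicase, was at 11.3, 11.2 and 12.2 CPM in no tumor muscle and 2.17, 2.87, 1.39 and 3.46 in KPC muscle, and in fat at 23.8, 14.7, 23.2 and 19.2 without tumor and 27.1, 32.5, 35.3 and 44.8 with it. Muscle fell and every KPC fat library stood above the no tumor ones, with -2.23 ± 0.29 and 0.79 ± 0.22 and a difference of -3.01 (95% interval -3.80 to -2.22). Mcm3 (-0.66 in muscle and 1.72 in fat) and the centromere histone Cenpa (-2.03 in muscle and 2.24 in fat) passed in both tissues on their own thresholds. Tpx2, which builds the spindle, had -1.45 in muscle and 1.76 in fat, and Mki67 had -1.25 in muscle and 1.99 in fat.

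Macrophage genes in sum stood higher in KPC fat and overlapped in muscle. Of 17 tested, 15 were positive in fat and 7 in muscle, 3 rose in fat and 1 in muscle, and 9 differed toward fat and 1 toward muscle, with medians of -0.10 and 1.42. Their sum ran from 423.1 to 1459 CPM in no tumor fat and from 1841 to 2858 in KPC fat, with no overlap. In muscle it ran from 135.2 to 197.3 CPM without tumor and from 66.8 to 254.6 with it. Mrc1, the mannose receptor, had -0.93 in muscle and 2.07 in fat, and Itgam had 0.03 in muscle and 2.43 in fat. Their part in the opposite moves of other genes was not tested. Of 14 genes of pancreatic and gastric epithelium, 6 were in the fat table and 1 in the muscle table. The 1 tested, Muc1, rose in fat (0.78 in muscle and 4.94 in fat). In fat alone, the 6 summed to between 127.9 and 345 CPM without tumor and between 327.1 and 596.3 with it, with overlap. Tff2, a member of that list, was at most at 0.193 CPM in no tumor fat and from 3.48 to 51.7 in KPC fat. The part of such RNA in the fat changes was not tested. The 2 erythroid genes tested rose in muscle and had no called difference, endothelial genes differed in 1 of 17 (medians of -0.16 in muscle and 0.53 in fat), and the 1 lymphocyte gene and the 2 mesothelium genes tested had no called difference, nor did the 1 epididymis gene. In fat alone, 10 mesothelium genes summed to between 481.8 and 1081 CPM without tumor and between 1233 and 2620 with it, with no overlap. Upk3b, a member of that list, overlapped.

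Interferon-inducible GTPases and antigen presentation genes fell in muscle. Of 37 tested, 29 fell and 0 rose in muscle, 0 passed in fat, where 6 were positive, and 12 differed, all with the higher change in fat. The medians were -1.54 and -0.38. Gbp7, a guanylate-binding protein, went from 21.3, 15.5 and 14.02 to 1.22, 3.47, 1.31 and 1.68 CPM in muscle and from 14.2, 46.6, 8.56 and 22.9 to 25.2, 26.6, 13.5 and 19.97 in fat. The muscle groups were apart and the fat groups overlapped (-3.14 ± 0.38 and -0.11 ± 0.50, adjusted p of the difference = 0.00350). The MHC class II gene H2-Aa fell in muscle (-1.30) and was at -1.58 in fat, where the groups overlapped and the change did not pass (edgeR adjusted p = 0.171). Without fat no tumor mice 6 and 8, 17 of the 37 were positive in fat and 23 differed.

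The machinery of protein breakdown rose in muscle, and none of its genes passed in fat. Fbxo32, the muscle ubiquitin ligase atrogin-1, was at 173, 144 and 221 CPM in no tumor muscle and 7734, 5212, 5591 and 5089 in KPC muscle. The fat libraries stood at 43.5, 56.3, 34.1 and 77.4 CPM without tumor and 33.4, 40.5, 24.9 and 27.2 with it. The muscle groups were more than an order of magnitude apart and the fat groups overlapped, with 5.04 ± 0.27 in muscle and -0.74 ± 0.28 in fat (edgeR adjusted p = 1.77e-05 and 0.243) and a difference of 5.79 (95% interval 4.83 to 6.74). Trim63, the ligase MuRF1, had 5.07 in muscle and -0.34 in fat, although it was at most at 1.46 CPM in fat. Of 23 FoxO and atrophy ubiquitin ligase genes, 15 rose in muscle and 0 in fat, and 16 differed toward muscle and 2 toward fat, with medians of 1.18 and -0.20. The transcription factors Foxo1 (2.84 in muscle and -0.36 in fat) and Foxo3 (2.09 in muscle and -0.31 in fat) followed the same pattern.

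Of 45 proteasome subunits, 35 rose in muscle and none passed in fat, and the difference was called toward muscle in 35. The medians were 1.64 and 0.10. Psmd11, of the regulatory lid, was at 74.5, 73.8 and 93.02 CPM in no tumor muscle and 535, 354, 527 and 399.8 in KPC muscle, and in fat at 56.9, 65.9, 49.9 and 55.2 without tumor and 81.8, 54.4, 60.1 and 63.1 with it. Its muscle groups were apart and its fat groups overlapped (2.50 ± 0.20 and 0.19 ± 0.16). The 2 members that differed toward fat were Psmb10 (-1.70 in muscle and 0.22 in fat), a catalytic subunit of the immunoproteasome, and Psme1 (-1.39 in muscle and 0.26 in fat), a subunit of its activator. The other catalytic subunits of the immunoproteasome, Psmb8 and Psmb9, also fell in muscle (-1.55 and -2.24), and their differences were just short of a call (adjusted p = 0.0520 and 0.0580). Of 35 autophagy genes, 24 rose in muscle, and 24 differed toward muscle and 1 toward fat, with medians of 1.17 and -0.08. Map1lc3a, an LC3 protein of the autophagosome (0.82 in muscle and -0.91 in fat), and Wipi2, which acts in its formation (1.47 in muscle and -0.26 in fat), went up in muscle and were lower in fat, both without overlap.

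Glucocorticoid target genes had the largest median difference toward muscle of the 22 pathway lists. Of 26 tested, 21 rose in muscle and 0 in fat, and 16 differed, all toward muscle, with medians of 2.53 and 0.20. Fkbp5, a chaperone of the glucocorticoid receptor, was at 28.2, 30.03 and 57.1 CPM in no tumor muscle and 715, 424, 574 and 718 in KPC muscle. In fat it was at 519.9, 199, 523 and 281 CPM without tumor and 625, 416, 399.7 and 314 with it, with overlapping groups. The log2 fold changes were 3.99 ± 0.34 and 0.20 ± 0.37 (edgeR adjusted p = 6.42e-05 and 0.827), and the difference was 3.78 (95% interval 2.66 to 4.91). Sesn1, a stress-induced inhibitor of mTORC1 (4.27 in muscle and -0.01 in fat), Cebpd, a transcription factor of the acute phase (3.94 in muscle and 0.94 in fat), and Pik3r1, the regulatory subunit of PI3-kinase (3.14 in muscle and -0.82 in fat), also differed. Pdk4, which shuts off pyruvate oxidation, was an exception. It rose in muscle from 625, 268 and 409 to 5999, 4549, 5027 and 5247 CPM and was at 8.40, 34.5, 3.74 and 23.5 in no tumor fat and 304, 68.3, 25.7 and 49.2 in KPC fat, where mouse 5 was far the highest. Its changes were 3.59 ± 0.31 and 2.67 ± 0.95, and their difference was not called. Angptl4, an inhibitor of lipoprotein lipase, had overlapping groups in both tissues (0.03 in muscle and 0.67 in fat).

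The insulin and stress signaling lists are read against the 37.9% of all genes tested with a called difference, 20.8% toward muscle and 17.1% toward fat, and the 52.9% that passed in muscle. Of 30 insulin and IGF signaling genes, 13 differed toward muscle and 2 toward fat, with medians of 0.57 in muscle and -0.17 in fat. Akt1, the kinase that restrains FoxO, was higher in both without overlap, at 2.90 in muscle and 0.65 in fat (adjusted p of the difference = 0.000447). Of 31 ATF4 integrated stress response genes, 18 rose in muscle and 0 in fat, and 10 differed toward muscle and 1 toward fat, with medians of 0.92 in muscle and -0.13 in fat. Ppp1r15a, which reverses eIF2 phosphorylation, had 3.93 in muscle and 0.31 in fat, and Ddit4, an inhibitor of mTORC1, had 2.73 in muscle and 1.03 in fat and did not overlap in either. Of 36 NRF2 and antioxidant genes, 11 differed toward muscle and 3 toward fat, with medians of 0.66 in muscle and -0.09 in fat. Gsr, glutathione reductase, was higher with tumor in both, going from 17.7, 16.5 and 19.2 to 50.7, 51.95, 74.7 and 55.8 CPM in muscle and from 62.2, 57.7, 58.5 and 60.6 to 312, 136, 114 and 209.7 in fat. Neither tissue's groups overlapped, but its fat change did not pass (edgeR adjusted p = 0.0661). Its difference was 0.02 (95% interval -0.76 to 0.81) and was not called. Of 21 circadian clock genes, 9 differed toward muscle and 4 toward fat, with medians of 0.61 in muscle and -0.0 in fat. The repressor Cry2 rose in muscle (2.30 in muscle and -0.63 in fat), and Hlf, a transcription factor of clock output, was lower in both without overlap (-2.47 in muscle and -1.14 in fat).

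The energy metabolism lists are read against the same shares over all genes tested. Of these, 20.8% differed toward muscle and 17.1% toward fat, and 27% rose and 25.9% fell in muscle. Of 31 fatty acid oxidation enzymes, 13 rose in muscle and 9 differed, all toward muscle, with medians of 0.41 in muscle and -0.23 in fat. Among them was Acot2, a mitochondrial thioesterase (3.60 in muscle and -0.02 in fat). Of 28 glycolysis enzymes, 3 differed toward muscle and 7 toward fat, with medians of -0.28 in muscle and -0.15 in fat. Pgk1, phosphoglycerate kinase, fell in muscle and was higher in fat without overlap (-0.67 in muscle and 0.66 in fat). Of 76 oxidative phosphorylation subunits, 21 fell in muscle and 0 in fat, 63 had the same sign in both tissues, and 5 differed toward fat, with medians of -0.40 and -0.18. The falls in muscle were near the share over all genes tested, and the differences toward fat were below it. Ndufa11, of complex I, was lower in both without overlap (-0.57 in muscle and -0.32 in fat), and Sdhd, of complex II, fell in muscle (-0.72 in muscle and 0.09 in fat). Of 20 polyamine and NAD metabolism genes, 6 differed toward muscle and 5 toward fat, with medians of -0.11 in muscle and -0.12 in fat. Smox, spermine oxidase, fell in muscle from 445, 365 and 516 to 60.3, 70.1, 69.2 and 73.4 CPM and overlapped in fat (-2.70 in muscle and -0.11 in fat), and Sirt3, the mitochondrial deacetylase, had -1.86 in muscle and -0.60 in fat. When fat no tumor mice 6 and 8 were left out, more genes differed toward fat in several lists: 25 oxidative phosphorylation subunits, 11 glycolysis enzymes, 11 endothelial genes, 8 insulin and IGF signaling genes, 7 NRF2 and antioxidant genes, 6 proteasome subunits and 5 lipolysis genes. The fat median was then positive for fatty acid oxidation (0.34), glycolysis (0.17), oxidative phosphorylation (0.09), NRF2 (0.29), insulin (0.07) and polyamine and NAD genes (0.17).

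**Figure D4:**
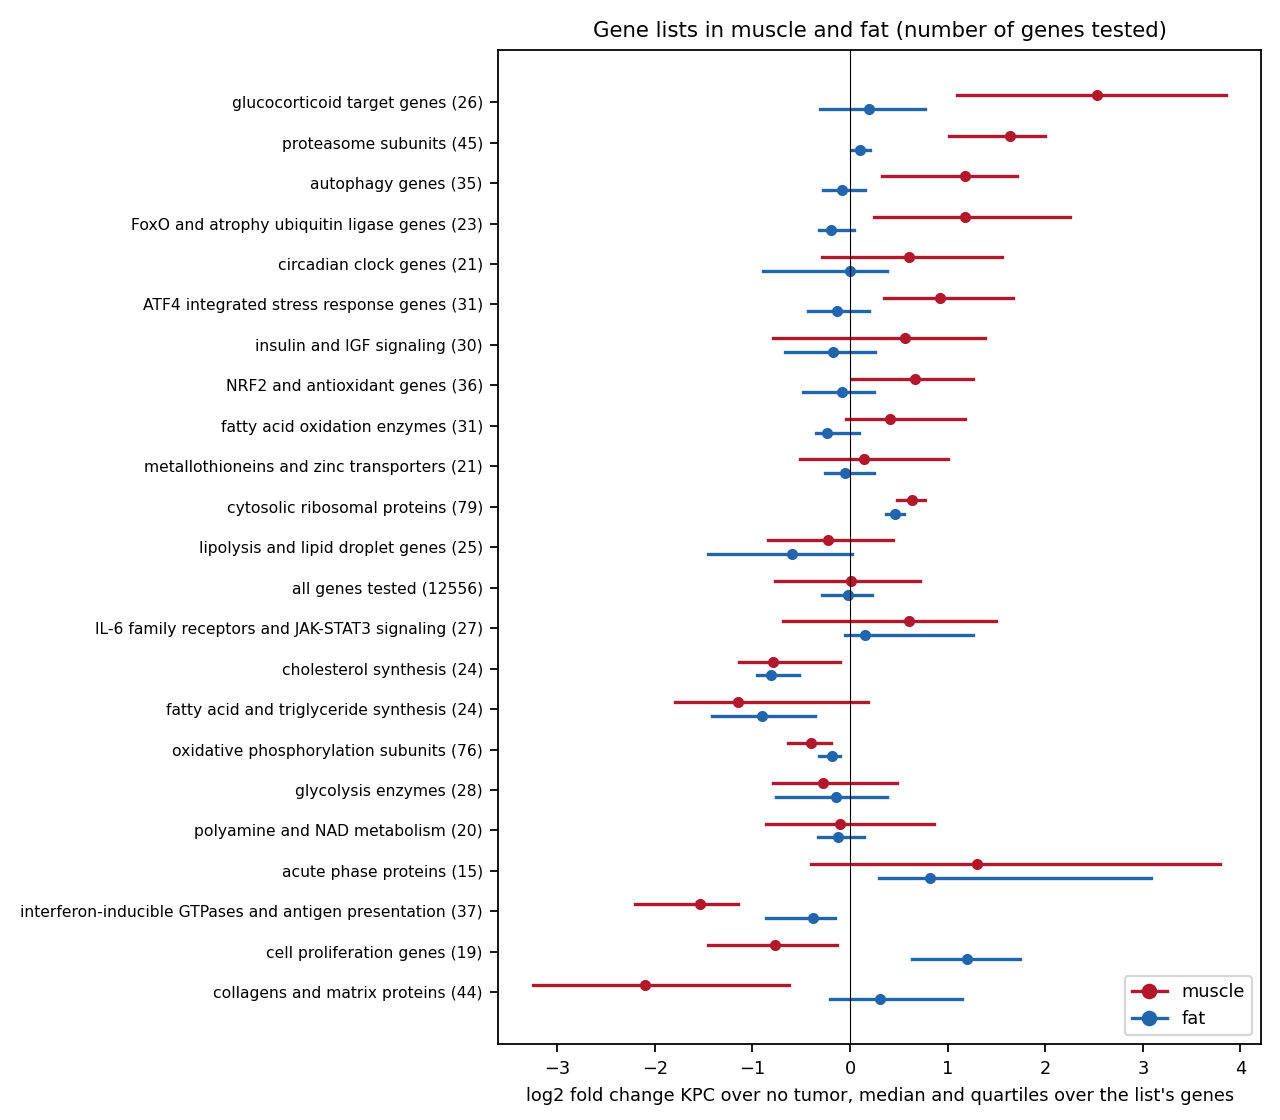
Median (point) and quartiles (line) of the log2 fold change of KPC over no tumor for each of 22 gene lists and for all genes tested, in muscle and in fat, ordered by the median difference between the 2. Glucocorticoid targets, proteasome, autophagy and ligase genes lie to the right in muscle only, ribosomal proteins lie right and cholesterol genes left in both, and proliferation and matrix genes lie left in muscle and right in fat.

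The largest single differences toward muscle among expressed genes (log2 CPM averaging 1 or more in both tissues) were Lcn2 and Fbxo32 above, with Doc2b, a calcium sensor of vesicle fusion (6.32 in muscle and 0.26 in fat), Wdr62, a spindle pole protein (4.61 in muscle and -1.20 in fat), and Arl4d. Doc2b was at 0.492, 0.442 and 2.05 CPM in no tumor muscle and 70.7, 29.3, 80.5 and 91.99 in KPC muscle, and in fat at 3.43, 6.46, 7.96 and 12.9 without tumor and 9.56, 5.47, 10.3 and 11.6 with it. The muscle groups were apart and the fat groups overlapped, and the difference was 5.98 (95% interval 4.25 to 7.72), adjusted p = 0.000128. The intervals in the plot of differences are for single genes and are not adjusted for the number of genes.

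**Figure D5:**
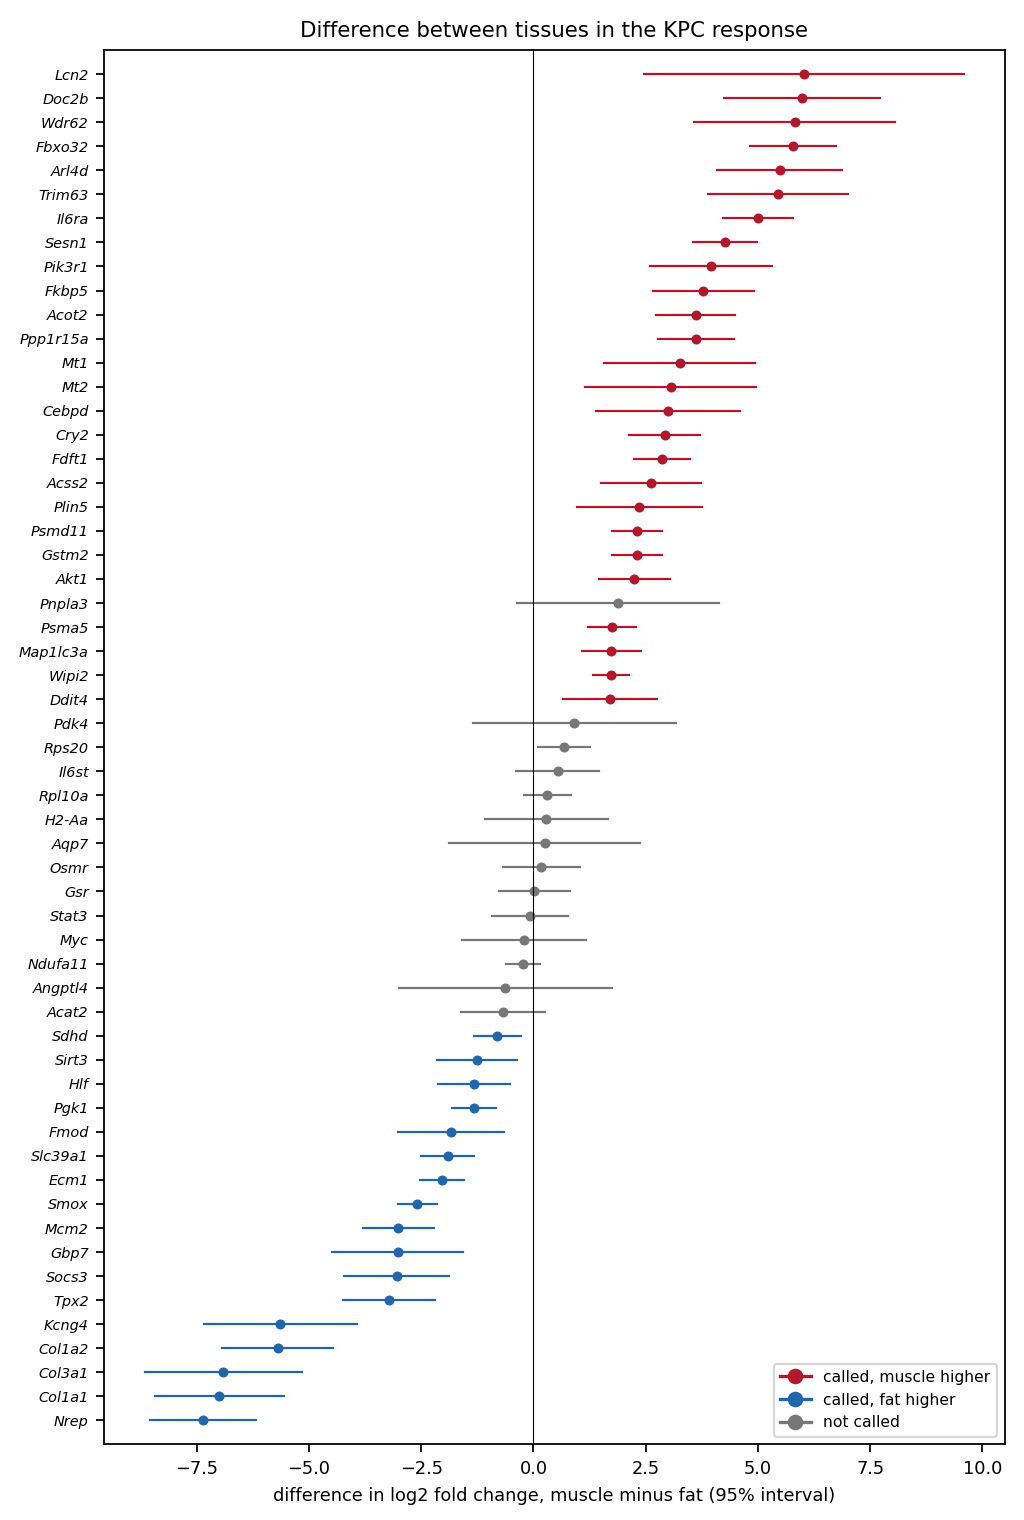
Difference between tissues in log2 fold change, muscle minus fat, with its 95% interval for single genes, for the genes named from the lists, the fixed genes and the largest differences. The 5 genes at the foot (Nrep, Col1a1, Col3a1, Col1a2, Kcng4) and those at the top (Lcn2, Doc2b, Wdr62, Fbxo32, Arl4d) lie far from 0, and Stat3, Osmr, Gsr and Myc have intervals that hold 0.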

How the data were processed

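Quadriceps and epididymal fat were profiled by RNA-seq in male mice, 1 library per mouse in each tissue. The authors deposited 1 table of raw counts per tissue, whole numbers of reads per gene, from reads aligned to mm10. The submitters' processing notes name FastQC, STAR, Subread featureCounts 1.5.1 and edgeR 3.12.1. They took 1 sham muscle sample out of their analysis, and it is not analysed here. Totals were 19259763 to 74907810 counts in muscle and 26306377 to 56308545 in fat, and no 2 libraries agreed within sampling noise (smallest chi-square per degree of freedom 28.86).

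Here the 15 KPC and no tumor libraries were joined on gene symbol, and edgeR's filterByExpr removed 43 genes. With R 4.3.3 and edgeR 4.0.16, counts were scaled by TMM within each tissue, a quasi-likelihood model fitted to each tissue on its own gave that tissue's log2 fold change, and 1 joint model with the 4 groups gave the difference by its interaction contrast, so that a difference can depart slightly from that of the printed fold changes. A call needed a Benjamini-Hochberg adjusted p of at most 0.05 and 1.5-fold. A gene moved in both tissues when the larger of its p-values, adjusted, passed. Standard errors come from the F statistics, and intervals are unadjusted 95%. p-values measure the spread between mice within the groups of each tissue, and whether both tissues came from 1 experiment was not established. Of the tested genes, 12130 matched the GENCODE annotation.

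Named genes were those nearest to a call in each pair of directions, the 5 largest differences per direction at a mean log2 CPM of at least 1 in each tissue, 2 per pathway list (the smallest p of the difference, and the best moving alike or oppositely), and 14 fixed genes. Genes called in each tissue on its own threshold, and the 3 per direction without overlap whose smaller absolute log2 fold change was largest, were added after seeing the data. A few items that these rules named are not reported here. The members, lists and rules were chosen with earlier results of these data known. Alternatives were DESeq2 1.42.0, limma 3.58.1 voom, edgeR's likelihood ratio test and newer dispersion method, RLE scaling, joint TMM, other filters, all 23 libraries, a replicate block, and leaving out each library. The code was tested on simulated data.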

Additional observations from a re-analysis of the deposited data

Results flagged for a closer look

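The tested difference between tissues was past an adjusted p of 0.05 (edgeR's quasi-likelihood test) for 69 of the 102 named genes. Of these, 34 had the higher change in muscle, with differences (muscle minus fat, log2) of 6.03 for Lcn2, 5.98 for Doc2b, 5.82 for Wdr62, 5.79 for Fbxo32, 5.49 for Arl4d, 5.44 for Trim63, 5.01 for Il6ra, 4.27 for Sesn1, 3.96 for Pik3r1, 3.78 for Fkbp5, 3.77 for Phlda3, 3.62 for Acot2, 3.61 for Ppp1r15a, 3.26 for Mt1, 3.21 for Tcta, 3.06 for Mt2, 2.99 for Cebpd, 2.92 for Cry2, 2.91 for Cyp27a1, 2.87 for Fdft1, 2.62 for Acss2, 2.43 for Snhg1, 2.36 for Plin5, 2.31 for Psmd11, 2.31 for Gstm2, 2.25 for Akt1, 2.03 for Atp6v0e, 1.75 for Psma5, 1.74 for Map1lc3a, 1.73 for Wipi2, 1.70 for Ddit4, 1.44 for Hmgb2, 1.24 for Ahcy and 1.02 for 1110038B12Rik. The other 35 had the higher change in fat, with differences of -7.36 for Nrep, -7.00 for Col1a1, -6.99 for Ptx3, -6.91 for Col3a1, -6.32 for Wisp1, -6.30 for Timp1, -5.70 for Col1a2, -5.64 for Kcng4, -4.92 for Cd276, -4.71 for Enpp3, -4.65 for Creb3l1, -4.35 for C1qtnf6, -4.27 for Fn1, -4.26 for Vcan, -4.26 for Cenpa, -4.12 for Cd44, -3.27 for Plat, -3.22 for Tpx2, -3.05 for Socs3, -3.03 for Gbp7, -3.01 for Mcm2, -2.59 for Smox, -2.46 for Adamts4, -2.38 for Mcm3, -2.28 for Sema4b, -2.21 for Bicc1, -2.12 for Slc25a34, -2.04 for Ecm1, -1.92 for Slc39a1, -1.84 for Fmod, -1.39 for Cgref1, -1.33 for Pgk1, -1.33 for Hlf, -1.26 for Sirt3 and -0.81 for Sdhd.

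In 14 of 306 values examined, 1 library stood apart from the other 3 of its group by Dixon's criterion for 4 samples, which chance meets in about 1 group in 20. In muscle, KPC mouse 3 was high in Arl4d at 248 CPM and in Chil3 at 2.40 CPM, and KPC mouse 2 stood apart in Sncg at 2.05 CPM. In fat without tumor, mouse 6 was high in Nnat at 1235 CPM and in Sncg at 726 CPM, the library with high adipocyte genes and low Gpx5. Mouse 8 stood apart in Wisp1 at 3.32 CPM, mouse 7 in Mcm3 at 10.03 CPM and mouse 5 in Vcan at 20.8 CPM. In KPC fat, mouse 5 was high in Pdk4 at 304 CPM and stood apart in Il6st at 297 CPM. Mouse 6 stood apart in Pik3r1 at 141 CPM, mouse 7 in Wdr62 at 54.5 CPM and in Aqp7 at 16.6 CPM, and mouse 8 in Cd44 at 283 CPM. The part of these libraries in the differences above was not tested beyond leaving out each in turn.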

How the results depend on the processing

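Under the 26 other settings, the count of genes with a called difference stayed within 1.5 times the main one in each direction. Leaving out 1 library at a time, it ran from 1997 to 2749 for a higher muscle change and from 1748 to 2507 for a higher fat change. Of the 4755 genes, between 3735 and 4750 stayed called in the same direction, and 1 turned its direction, without fat no tumor mice 6 and 8 (a setting chosen with earlier results of these data known). Scaling all 15 libraries together moved the median difference over all genes from 0.06 to -0.05 and the share with muscle higher from 54.8% to 47.9% of calls. The counts for genes moving in both tissues did depend on the tool. Against 0 by the quasi-likelihood test, the likelihood ratio test called 58 up in both, 45 down in both, 2 up in muscle and down in fat, and 46 the other way. DESeq2 called 111, 100, 15 and 77, and each tissue on its own threshold gave 19, 0, 1 and 13. The cause was not tested. Among named genes, leaving out some single library ended the call of the difference for Adamts4, Cgref1, Ddit4, Mt2, Sirt3 and Slc25a34, and the call in muscle for Bicc1, Cdt1, Cgref1, Csf3r, Il6st, Mcm3, Socs3, Stat3, Timp1 and Wfdc17.

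Among the named genes, no value past its threshold turned its sign under any setting tried. Values below are log2, the difference of muscle minus fat unless a tissue is named. Under DESeq2 the values with the opposite sign were Glt8d2 -0.011 and Serpina3n -0.011. Without fat no tumor mice 6 and 8 the values with the opposite sign were Glt8d2 -0.97, Lcn2 in fat -0.70, Aqp7 -1.48, Pdk4 -0.64, Acot2 in fat 0.34, H2-Aa -0.68, Gbp7 in fat 0.92, Il6st -0.11, Stat3 0.076, Fkbp5 in fat -0.24, Csf3r 0.036, Serpina3n -1.55, Sncg -0.97 and Jph2 -2.39. With TMM over all 15 libraries the values with the opposite sign were Glt8d2 -0.085, Gsr -0.085 and Serpina3n -0.11. Under limma voom the values with the opposite sign were Glt8d2 -0.17, Aqp7 -0.47, S100a9 0.0051, Serpina3n -0.28 and Jph2 -0.72. With at least 10 counts in every library the values with the opposite sign were Gsr -0.040, Angptl4 in muscle -0.035 and Serpina3n -0.052. With all 23 libraries in the fit it was Serpina3n -0.00091. Leaving out 1 library at a time turned a sign in 25 values, whose ranges were Chil3 -1.41 to 1.01, Glt8d2 -0.35 to 0.27, Aff3 -0.27 to 0.065, Lcn2 in fat -0.14 to 1.10, Kcng4 in fat -0.53 to 0.30, Myc -0.58 to 0.053, Sesn1 in fat -0.094 to 0.071, Aqp7 -0.79 to 0.71, Acot2 in fat -0.19 to 0.28, Sdhd in fat -0.016 to 0.27, H2-Aa -0.22 to 0.54, Gbp7 in fat -0.39 to 0.48, Gsr -0.17 to 0.33, Il6st in fat -0.13 to 0.35, Stat3 -0.25 to 0.25, Fkbp5 in fat -0.0091 to 0.40, Trim63 in fat -0.84 to 0.084, Angptl4 -1.93 to 0.10, Angptl4 in muscle -0.37 to 0.77, S100a9 -0.59 to 0.84, Csf3r -0.47 to 0.23, Serpina3n -1.06 to 1.05, Nnat -2.59 to 0.061, Sncg -0.60 to 1.90 and Jph2 -0.93 to 0.57.

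The replicate numbers in the labels did not pair the samples. Deviations of same-numbered libraries from their group means correlated at between -0.16 and 0.27, and not every pair was above 0.1. With the replicate number as a block, 2132 genes were called with a higher muscle change and 1930 with a higher fat change, no gene passed in fat, and the calls in both tissues were 0 by either rule. Under the block the values with the opposite sign were Glt8d2 -0.43, Aqp7 -0.49, Acot2 in fat 0.014, Gbp7 in fat 0.12 and Jph2 -1.03. With 3 to 4 mice a group, the common coefficient of variation was 55.7% over the 8 fat libraries and 26.7% in muscle, each over all filtered genes of its own table. Genes at a few counts in muscle, such as Chil3, have fold changes that are bounds.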
